A study of Mus musculus with 9 samples.

Results

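Open chromatin of ER- luminal cells was set against that of basal cells in the mouse mammary gland, using 6 of the 9 libraries of the series: 3 of ER- luminal cells and 3 of basal cells, each pair matched by stage. Every stage (puberty, adult and pregnancy, which the series' design text calls mid pregnancy) had 1 library per cell type, and all 124860 regions of the deposited table were compared. The 3 ER+ luminal libraries took no part in calling differences and were then placed between the ER- luminal and basal values. Nuclei of cells sorted by FACS were profiled by ATAC-seq, an assay that reads open DNA as the sites cut and tagged by the transposase Tn5. All mice carried the genotype ERrtTA/TetOCre/rosaYFP. It combines rtTA, an activator that needs doxycycline, a Cre recombinase placed under the TetO element that rtTA binds, and a yellow fluorescent reporter in the Rosa locus. Which cells the reporter marked, the sorting gates, the age and number of mice and whether doxycycline was given are not stated in the sources used here.

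The mammary epithelium is a bilayer. Basal cells lie on the outside, contract to expel milk and rest on the stroma, while luminal cells face the duct's lumen. ER+ luminal cells sense oestrogen and signal to their neighbours, and ER- luminal cells include the progenitors that give rise to milk-secreting alveoli in pregnancy. Luminal and basal identities are known to be held by different transcription factors, and accessible regions mark the promoters and enhancers in use in a cell type. The regions carry a running number with no position or gene name in the table, so the labelled cell types were not checked against marker genes and no gene or sequence is given.

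Depth differed between the stages. Values are the normalised signal of the deposited table, in which 1 read was worth 0.526 to 2.199 units depending on the library. Reads in regions ranged from 7375760 to 8525184 in the 4 puberty and adult libraries of the pair, and were 3418164 in ER- luminal and 2186941 in basal pregnancy cells. The pregnancy libraries also held a narrower range of values. The 90th percentile over regions was 35.0 times the 10th in ER- luminal, 23.0 times in basal and 16.3 times in ER+ luminal pregnancy cells, against 39.8 to 88.3 times in the other 6 libraries. A lower value can stand for a site that is open less often in each cell or in fewer cells, which cannot be told apart in pooled nuclei.

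ER- luminal and basal chromatin differed at 21.6% of the regions, and basal-higher regions were the more numerous and the further apart. Of 124860 regions, 15578 were more accessible in basal cells, which is 12.5%, and 11423 in ER- luminal cells, which is 9.15% (limma on log2(value + 1), stage as block, Benjamini-Hochberg adjusted p under 0.05). The median log2 difference, ER- luminal minus basal, was -1.92 in the first set (quartiles -2.45 and -1.48) and 1.59 in the second (quartiles 1.29 and 1.93), with median standard errors of 0.46 and 0.41. At least 4-fold differences made up 45.9% of the basal-higher set and 21.0% of the ER- luminal-higher set. At least 16-fold differences numbered 118 and 0. The spread behind these tests starts from how far the 3 stage differences of a region lie from each other, since no cell type had a second library at a stage. limma then draws it toward a trend over regions of similar mean value, so a region's SE can be narrower or wider than its own spread. The median over all regions was -0.012. The deposited scaling, under which each library has the same median ratio of 1.0188 to the geometric mean over libraries, sets this median near 0, so it does not bear on an overall difference in accessibility. The excess of basal-higher calls depended on the scaling. It was smaller after quantile normalization, with 14351 basal-higher against 12950 ER- luminal-higher regions, and with TMM scaling, with 14690 against 12364.

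**Figure D1:**
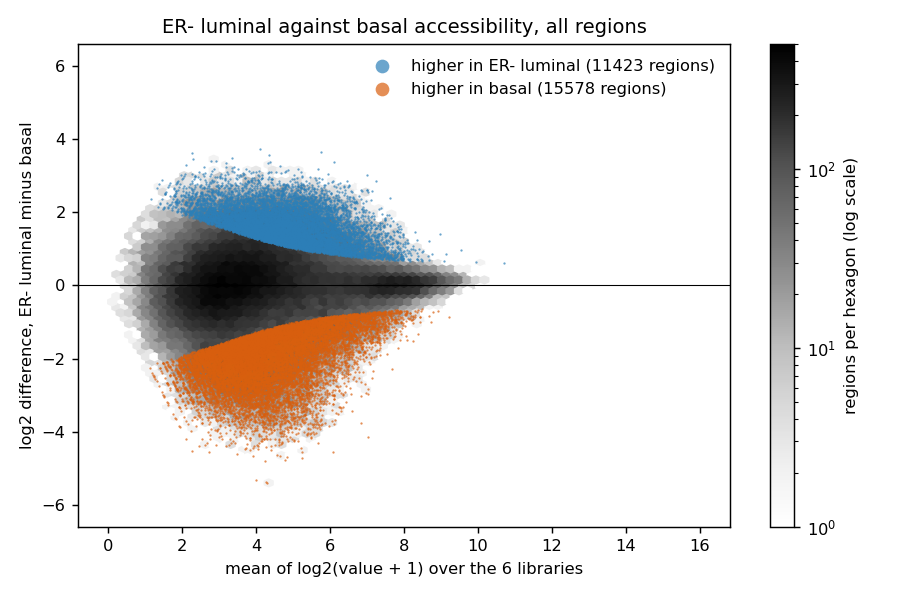
Mean of log2(value + 1) over the 6 libraries (x axis) against the log2 difference, ER- luminal minus basal (y axis), for all 124860 regions; grey hexagons count regions on a log scale, and coloured points are the 11423 regions called higher in ER- luminal and the 15578 called higher in basal cells. The cloud reaches further below 0 than above it, and the brightest regions lie close to 0.

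Calls were rare among dim regions and most frequent in the fourth quintile of regions by mean value. In the dimmest quintile, with a mean over the 6 libraries up to 6.77, 2.47% of regions were called basal-higher and 1.09% ER- luminal-higher. In the fourth quintile, from 22.37 to 54.01, these shares were 21.64% and 18.53%, and in the brightest they fell back to 13.51% and 12.54%. The sizes of called differences shrank with brightness. Their median absolute log2 value went from 2.19 in the dimmest to 1.39 in the brightest quintile among basal-higher regions, and from 2.17 to 1.32 among ER- luminal-higher regions. A dim region needs a larger difference to be called, so the medians of the dim quintiles are set in part by the test. Regions that were uncalled had a median mean value of 13.3, against 25.8 and 32.6 in the basal-higher and ER- luminal-higher sets.

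The count of calls depended on the model, on depth and on the puberty and adult libraries. Without a variance trend 4030 regions were called ER- luminal-higher and 9121 basal-higher, and at equal depth 5626 and 8529. Without the ER- luminal adult library 4183 regions were called ER- luminal-higher and 8630 basal-higher, and without the basal adult library 4897 and 7593. Without the ER- luminal puberty library the numbers were 6337 and 11697, and without the basal puberty library 7413 and 10349. Each such omission leaves 2 complete stages. Without the ER- luminal or the basal pregnancy library they were 12334 and 16471, or 12916 and 15924. Basal-higher regions outnumbered the others in each of the 6 fits with a library left out. Leaving out either library of a stage keeps the same stage differences, so these fits are not 6 separate checks. In an additive model of all 9 libraries 7171 and 10339 regions were called, and 99.5% of these calls were also made in the 6 libraries, of whose calls they formed 64.5%.

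The difference between the cell types was of similar size at puberty and in adults and smaller in pregnancy. In the ER- luminal-higher set the median log2 difference was 1.87 at puberty, 1.71 in adults and 1.11 in pregnancy. In the basal-higher set it was -2.12, -2.08 and -1.55. The pregnancy median was thus 0.59 times the puberty median in the first set and 0.73 times in the second. The direction was shared by the 3 stages in 96.35% of ER- luminal-higher and 97.55% of basal-higher regions, a share that the call itself favours. These values come from 1 library per cell type and stage and have no replicate check.

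**Figure D2:**
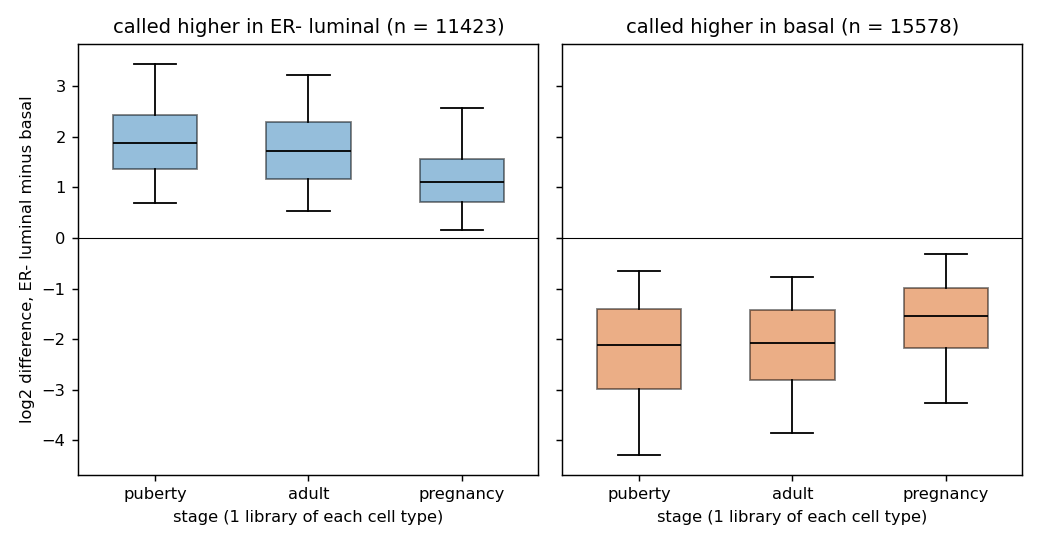
Log2 difference, ER- luminal minus basal, at each stage in the regions called higher in ER- luminal (left) and in basal cells (right); boxes span the quartiles, the line is the median and whiskers reach the 5th and 95th percentiles. The medians in pregnancy, 1.11 and -1.55, lie nearest 0.

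By medians, the closed side of the pair was less closed in pregnancy, while the open side hardly moved or returned to its pubertal level. By means, the open side was lowest in pregnancy. In the ER- luminal-higher regions the median value in basal cells was 11.9 at puberty, 14.2 in adults and 19.8 in pregnancy, and in ER- luminal cells 48.0, 50.5 and 44.0. In the basal-higher regions ER- luminal cells had medians of 6.5, 8.9 and 12.1, and basal cells 37.2, 46.6 and 37.4. The lower median therefore rose from puberty to pregnancy in each set. Means of the open side were 75.6, 70.1 and 60.2 in ER- luminal cells and 59.2, 69.4 and 52.5 in basal cells. Means of the closed side were 20.9, 27.3 and 28.4 in basal cells and 17.3, 19.5 and 19.3 in ER- luminal cells. From adult to pregnancy the means thus changed mainly on the open side. The pregnancy libraries had a narrower range of values at large, and its part in the smaller difference was not tested. Among uncalled regions, ER- luminal cells had medians of 12.9, 13.4 and 13.7 and basal cells 11.9, 12.6 and 13.2 over the same stages.

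Over all regions, called or not, differences of at least 4-fold were fewer in pregnancy in each direction. At puberty 11804 regions were at least 4-fold higher in basal cells and 7310 in ER- luminal cells, which is 9.45% and 5.85% of all regions. In adults these were 10895 and 7331 (8.73% and 5.87%), and in pregnancy 7096 and 4629 (5.68% and 3.71%). The SD of the log2 difference over regions was 1.41, 1.36 and 1.18 in that order of stages. The excess on the basal side was steeper for extreme differences. At least 16-fold differences were 6.73 times as many on the basal as on the ER- luminal side at puberty, with 1239 against 184, and 4.77 times in adults, with 568 against 119. In pregnancy the ratio was 1.69, with 280 against 166, so that on the ER- luminal side 16-fold differences were fewest in adults. In basal pregnancy cells, the shallowest library, 1 read was worth 2.199 units and 2.7% of regions had no read. The part of depth in the 16-fold counts was not tested.

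Counts of differences of at least 4-fold moved with the treatment of low values and depth, while pregnancy had the fewest in each direction throughout. With a pseudocount of 4 in place of 1, the ER- luminal-higher counts at puberty, adult and pregnancy were 3708, 2775 and 867, and the basal-higher counts 5825, 6072 and 2935. With reads of the 6 libraries thinned to the 2186941 of the shallowest, they were 10978, 13307 and 4566, and 15960, 13946 and 9343. After quantile normalization, which gives every library the same range of values, they were 8240, 6817 and 6136, and 9787, 8621 and 7990. The gap between pregnancy and the earlier stages was narrowest there.

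The same regions tended to differ at each stage. The ER- luminal minus basal difference at puberty and in adults, which share no library, had a Pearson r of 0.611 over the 124860 regions and 0.793 over the brighter 62430. Between adult and pregnancy r was 0.467 (0.696 over the brighter regions), and between puberty and pregnancy 0.423 (0.646). At equal depth the 3 values over all regions became 0.438, 0.368 and 0.337, in the same order. Regions are not independent replicates, and these values are a description.

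Regions at least 4-fold apart at all 3 stages lay mostly on the basal side. There were 2390 with the basal value higher, which is 1.91% of all regions, and 217 with the ER- luminal value higher, which is 0.17%. Exactly 2 stages passed this fold in 5189 basal-higher and 2889 ER- luminal-higher regions, and exactly 1 stage in 12247 and 12841. Single-stage differences were thus about evenly split, and the excess on the basal side belonged to the regions that passed at 2 or 3 stages.

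Regions chosen at 2 stages were then read at the third, which had played no part in their choice. Of 5871 regions at least 4-fold higher in basal cells at puberty and in adults, 94.2% were higher in basal cells in pregnancy too and 40.7% at least 4-fold, with a median log2 difference of -1.77. Chosen at the other pairs of stages, 3263 regions had a median of -2.78 at puberty, with 73.2% at least 4-fold higher in basal cells, and 3225 had -2.68 in adults, with 74.1%. Most basal-higher regions were thus still at least 4-fold apart when read at puberty or in adults, but not when read in pregnancy.

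ER- luminal-higher regions kept less of theirs. Of 2293 regions at least 4-fold higher in ER- luminal cells at puberty and in adults, 87.9% were higher there in pregnancy and 9.5% at least 4-fold, with a median of 1.06. In basal cells these regions had medians of 5.5 and 6.3 at puberty and in adults and 17.6 in pregnancy, and in ER- luminal cells 44.4, 47.5 and 36.4. The 565 regions chosen at puberty and in pregnancy had a median of 1.69 in adults, and 38.4% were at least 4-fold apart. Their choice rested on few basal reads, with basal medians of 3.2 at puberty and 4.4 in pregnancy, the worth of 4 and 2 reads.

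The 682 regions chosen in adults and pregnancy differed by a median log2 value of 1.34 at puberty, and 31.8% of them were at least 4-fold apart. In ER- luminal cells their median values were 12.2 at puberty, 20.8 in adults and 22.8 in pregnancy. In basal cells they were 5.5, 2.4 and 2.2, the worth of 7 reads at puberty, 3 in adults and 1 in pregnancy. These regions were dim, with a median mean value of 11.7. At a pseudocount of 4, which also changes the regions chosen, the puberty median was 1.89. With an 8-fold rule only 28 regions remained, with a median of 0.53.

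**Figure D3:**
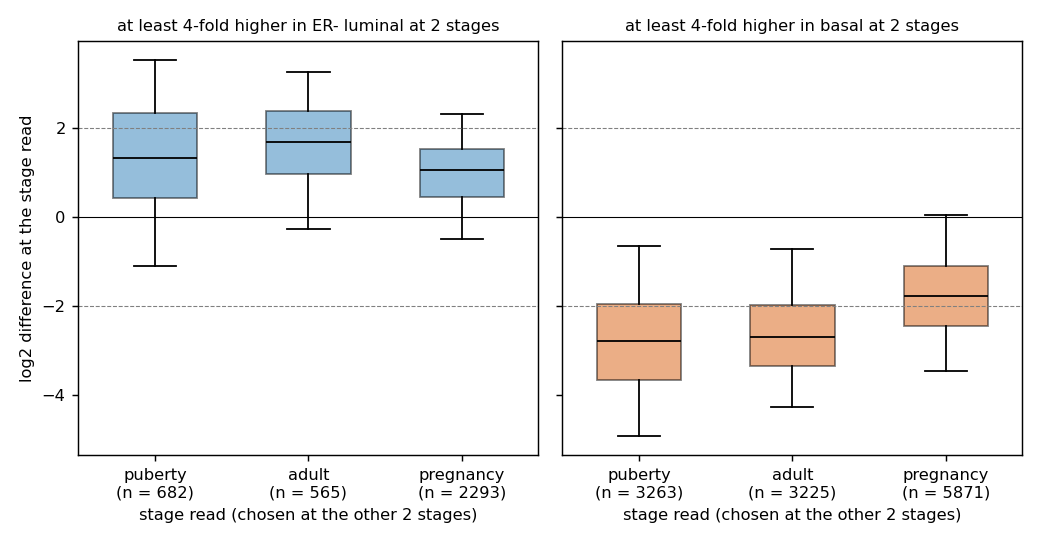
Log2 difference at 1 stage in regions at least 4-fold apart in the same direction at the other 2 stages, for ER- luminal-higher (left) and basal-higher regions (right); boxes span the quartiles, whiskers the 5th to 95th percentiles, dashed lines mark 4-fold. Basal-higher medians are -2.78, -2.68 and -1.77, and ER- luminal-higher medians 1.34, 1.69 and 1.06, at puberty, adult and pregnancy.

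ER+ luminal cells sided with ER- luminal cells where basal cells were the more open. Averaged over the stages, the ER+ luminal value lay nearer the ER- luminal than the basal value in 13584 of the 15578 basal-higher regions, or 87.2%, against 51.1% of the regions that were not called. The share was 84.4% at puberty, 86.7% in adults and 72.4% in pregnancy. In 9750 regions, or 62.6%, ER+ luminal cells lay nearer ER- luminal cells at all 3 stages, and in 874, or 5.6%, nearer basal cells at all 3. For the larger part of basal-higher regions, then, the lower level was shared by the luminal types.

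In many basal-higher regions the ER+ luminal value went past the ER- luminal one. It was the lowest of the 3 cell types in 58.7% of them at puberty and 64.9% in adults, and in 39.0% in pregnancy. Median values in ER+ luminal cells were 4.2, 5.1 and 13.6, beside 6.5, 8.9 and 12.1 in ER- luminal and 37.2, 46.6 and 37.4 in basal cells. At puberty and in adults the order of these medians was basal, ER- luminal, ER+ luminal, and in pregnancy the luminal types changed places. The ER+ luminal pregnancy library had the narrowest range of values of the 9, and its part in this was not tested.

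Where ER- luminal cells were the more open, ER+ luminal cells took neither side as a whole. The mean ER+ luminal value lay nearer ER- luminal cells in 4817 of 11423 regions, or 42.2%, and nearer basal cells in 57.8%. By stage the first share was 45.1% at puberty, 45.0% in adults and 39.4% in pregnancy. At all 3 stages 2557 regions, or 22.4%, had ER+ luminal nearer ER- luminal cells and 4147, or 36.3%, nearer basal cells, while 4719 changed sides between stages. In the calls of the 9-library fit the share nearer ER- luminal cells was 49.4%. The split of the values was wide: at puberty the quartiles of the ER+ luminal value were 5.3 and 68.9 around a median of 19.5, against 25.1 and 93.9 in ER- luminal and 5.5 and 23.7 in basal cells. The lower ER+ luminal quartile was close to that of basal cells, and the upper one lay well above that of basal cells. Their value exceeded the ER- luminal one in 23.4% of these regions at puberty and 26.4% in adults, and lay below the basal one in 33.6% and 35.6%.

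**Figure D4:**
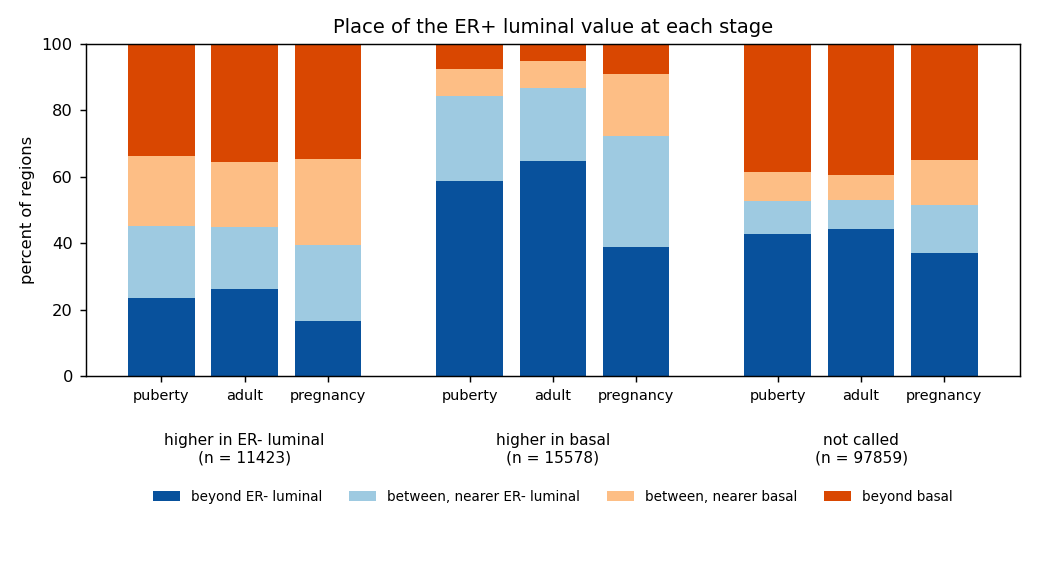
Percent of regions (y axis) by the place of the ER+ luminal value at each stage, in regions called higher in ER- luminal, called higher in basal and not called; dark blue lies beyond the ER- luminal value, light blue between but nearer ER- luminal, light orange between but nearer basal, and dark orange beyond the basal value. The blue parts make up 84.4%, 86.7% and 72.4% of the basal-higher bars and 45.1%, 45.0% and 39.4% of the ER- luminal-higher bars.

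The distance of ER+ luminal cells from the midpoint of the other 2 types was then tested over all 9 libraries. In this balanced design that contrast is orthogonal to ER- luminal minus basal. Over all regions 37.1% were called, 18.3% below the midpoint and 18.8% above it (limma, adjusted p under 0.05). Among the 15578 basal-higher regions 7619, or 48.9%, were called below it, on the ER- luminal side, with a median distance of -1.88, and 494, or 3.2%, were called above it. Among the 11423 ER- luminal-higher regions 1708, or 15.0%, were called above it, on the ER- luminal side, and 2830, or 24.8%, below it, on the basal side. The side was not called in 47.9% and 60.3% of the sets, which does not show that ER+ luminal cells sat midway.

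These side counts moved with single libraries, though their order did not. Without the ER+ luminal pregnancy library 9498 basal-higher regions were called on the ER- luminal and 767 on the basal side, and 2599 and 3560 of the ER- luminal-higher regions. In the puberty and adult libraries alone the 4 counts were 9856, 904, 3055 and 4079. Without the ER+ luminal puberty library they were 4049, 174, 553 and 1496, and without the ER+ luminal adult library 3807, 179, 616 and 1088. Without the ER- luminal adult, basal adult, ER- luminal puberty or basal puberty library, at most 5284 basal-higher regions were called on the ER- luminal side and at most 414 on the basal side. For ER- luminal-higher regions the 2 counts without those libraries were 472 and 759, 734 and 921, 637 and 1279, and 854 and 1765. Without the basal pregnancy library they were 2565 and 2927, and without the ER- luminal pregnancy library 1413 and 3623. The shares nearer ER- luminal cells, in contrast, stayed between 84.7% and 90.3% of basal-higher and between 39.3% and 45.8% of ER- luminal-higher regions when any 1 of the 9 libraries was left out.

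The place of ER+ luminal cells varied with the size of the difference between ER- luminal and basal cells. Among basal-higher regions the share nearer ER- luminal cells was 87.8% of the 817 regions at log2 differences under 1, 82.8% at 1 to 2, 90.4% at 2 to 3, 96.8% at 3 to 4 and 98.3% of the 118 regions at 4 or more. Among ER- luminal-higher regions it was lower at larger differences, with 46.3% of 786 regions under 1, 44.8% at 1 to 2, 32.1% at 2 to 3 and 21.0% of the 62 regions at 3 to 4. From log2 differences of 1 upward, in either direction, ER+ luminal cells thus lay nearer the lower of the 2 values more often as the difference grew. By brightness the share in basal-higher regions was 73.4% in the dimmest quintile and 86.6% to 89.5% in the other 4. In ER- luminal-higher regions it was 49.3%, 36.2%, 32.3%, 43.0% and 49.8% from the dimmest to the brightest quintile.

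Regions chosen at 2 stages gave a similar picture at the third for basal-higher regions, and a stronger lean to basal cells for ER- luminal-higher regions. In basal-higher regions the ER+ luminal value at the stage read was nearer ER- luminal cells in 89.1% at puberty, 92.9% in adults and 75.3% in pregnancy. In ER- luminal-higher regions the shares were 36.7%, 40.9% and 32.0%, below the 45.1%, 45.0% and 39.4% of the called set. Here neither the ER- luminal nor the basal library of the stage read had chosen the regions.

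A region was then taken for each combination of direction and side, as the one with the largest difference among those of steady sign and side and sufficient value. Region merged7017 stood for the most common class, higher in basal cells with ER+ luminal nearer ER- luminal cells, with 8972 regions to choose from. Its values in basal cells were 97.4 at puberty, 138 in adults and 150 in pregnancy. In ER- luminal cells they were 0.717, 2.97 and 3.03, and in ER+ luminal cells 1.58, 0.855 and 18.6. All basal values lay above all luminal ones, and the ER+ luminal pregnancy value was the highest luminal one. The log2 difference, ER- luminal minus basal, was -5.40 (SE 0.45, limma adjusted p = 1.43e-13), and ER+ luminal cells lay at -2.11 from the midpoint (SE 0.55, limma adjusted p = 0.00524). Reads in basal cells were 59.5 times those in ER- luminal cells after scaling, with a 95% exact counting interval of 28.6 to 149 that rests on 7 ER- luminal reads.

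Region merged7260 was open in basal and ER+ luminal cells and nearly closed in ER- luminal cells, a class with 689 candidates. Basal values were 41.2, 71.8 and 26.4 at puberty, adult and pregnancy, ER+ luminal values 24.2, 43.6 and 15.3, and ER- luminal values 1.43, 2.97 and 0. The zero allows up to 4.55 units, the worth of 3 reads. The ER- luminal values lay below all others. The log2 difference was -4.36 (SE 0.57, limma adjusted p = 2.38e-08), and ER+ luminal cells lay 1.45 above the midpoint (SE 0.46, limma adjusted p = 0.017).

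Region merged102916 was highest in ER- luminal cells at each stage, with ER+ luminal cells nearer basal cells, a class with 3925 candidates. Its ER- luminal values were 143, 245 and 197 at puberty, adult and pregnancy. Basal cells had 1.58, 21.3 and 61.6, and ER+ luminal cells 8.94, 8.55 and 62.7. The groups did not overlap, but the basal and ER+ luminal values were highest in pregnancy, where the log2 difference was 1.66 after 5.80 at puberty and 3.46 in adults. Over the stages it was 3.64 (SE 0.40, limma adjusted p = 1.5e-10), with ER+ luminal cells at -1.57 from the midpoint (SE 0.49, limma adjusted p = 0.0151). The SE of 0.40 is drawn toward that of regions of similar mean value and is narrow beside these stage differences. Without a variance trend the limma adjusted p of the log2 difference was 0.0282.

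Region merged13111 was shared by the luminal types, with 2312 candidates. ER- luminal cells had 43.0, 25.3 and 12.1 and ER+ luminal cells 18.4, 47.0 and 10.2 at puberty, adult and pregnancy, against 1.58, 3.95 and 0 in basal cells. That zero allows up to 6.60 units. Each luminal value exceeded each basal one, and both luminal types had their lowest value in pregnancy. The log2 difference was 3.40 (SE 0.62, limma adjusted p = 2.29e-05), and ER+ luminal cells lay 1.52 above the midpoint (SE 0.51, limma adjusted p = 0.0238). The 4 regions passed the threshold in each of the 17 alternatives in which they were tested, the highest adjusted p being 0.0282 (limma without a variance trend). They had been chosen as called and largest in these same libraries, so passing was favoured in advance. The side of ER+ luminal cells at all 3 stages was part of the choice too. The adjusted p of their distance from the midpoint was therefore also favoured in advance. The alternatives also share libraries and are not separate checks.

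**Figure D5:**
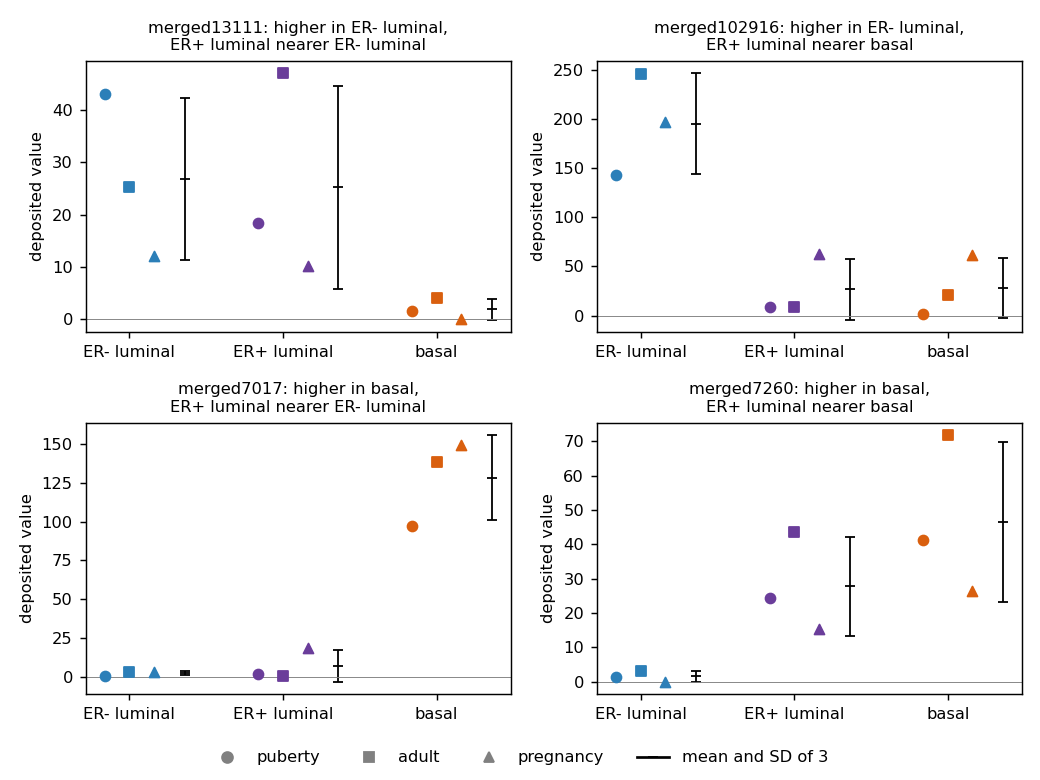
Deposited values (y axis) of the 4 named regions in each of the 9 libraries by cell type, with circles for puberty, squares for adult and triangles for pregnancy; black bars give the mean and SD of the 3 stages. In merged7017 all luminal values are at most 18.6 and all basal values at least 97.4, and in merged7260 the ER+ luminal values lie with the basal ones.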

How the data were processed

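The table deposited by the authors held 1 normalised signal value per region and library. The submitters' processing notes name MACS2 2.1.0.20151222, Picard, SAMtools and Bowtie2 2.2.6, and the build GRCm38 (mm10). They do not say whether reads were shifted for the Tn5 cut, or how regions were merged and values scaled. In each of the 9 libraries 100% of values were whole multiples of 1 step (tolerance 0.02 reads), taken as 1 read. This gave 2186941 to 11328189 reads in regions per library.

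Values were compared as log2(value + 1) with limma 3.58.1 (R 4.3.3), a variance trend and no filter on low values. This scale understates differences of dim regions. The 6-library fit held cell type and stage, with 2 residual degrees of freedom, and the ER+ luminal contrast used 9 libraries, with 4. With 1 library per cell type and stage, p-values measure how far libraries stray from a cell type difference that is equal at every stage, not a spread between animals. limma moderates this for each region toward the trend over regions of similar mean value. Deviations of the ER- luminal and basal libraries of 1 stage from their cell type means correlated over regions at 0.112 (puberty), 0.139 (adult) and 0.228 (pregnancy). Between stages these values ran from -0.228 to 0.131, the highest being ER- luminal puberty with basal adult, above the matched puberty value. Stage, from the labels, paired the libraries.

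Named regions were called, had 1 sign at the 3 stages and a mean in the higher cell type at or above 16.33, the median of all regions. The largest difference was taken for each direction and side of ER+ luminal cells. Alternatives used edgeR 4.0.16, DESeq2 1.42.0, quantile normalization, TMM, equal depth (recovered reads drawn without replacement), other pseudocounts, a low-value filter and left-out libraries. The fits were tested on simulated data. The comparison and tests were chosen with earlier results of these data known. Counting intervals cover counting error only.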

Additional observations from a re-analysis of the deposited data

Results flagged for a closer look

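At 542 regions, 0.43% of all, the ER- luminal value was at least 4-fold higher than the basal one at 1 stage and at least 4-fold lower at another, so that the direction turned between stages. The difference between stages was not tested, since each stage has 1 library per cell type. These regions were dim, with a median mean value of 4.6 against 16.33 over all regions, and 51 of them had a mean of at least 10. The most frequent pattern, at 202 regions, was basal-higher at puberty and ER- luminal-higher in pregnancy. The next, at 137, was basal-higher in adults and ER- luminal-higher in pregnancy. The reverse patterns numbered 81 for puberty with pregnancy and 72 for adults with pregnancy. A zero in basal pregnancy cells allows up to 6.60 units.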

How the results depend on the processing

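Calls of ER- luminal-higher and basal-higher regions were within 1.5 times of 11423 and 15578 with other pseudocounts, the low-value filter, quantile normalization, TMM scaling, the puberty and adult libraries alone, DESeq2 (8417 and 10858) and edgeR on recovered reads (12626 and 14855). They were 7171 and 10339 in the 9-library fit, 4030 and 9121 without a variance trend, and 5626 and 8529 at equal depth. With no replicate block, that is with the pairing by stage left out, they were 7227 and 11666. Leaving out 1 library gave 4183 to 12916 and 7593 to 16471. DESeq2 gave no adjusted p to 29050 regions, which were counted as not called.

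ER- luminal-higher regions with ER+ luminal cells called on the ER- luminal side numbered 472 to 2599 without 1 library, 626 at equal depth and 3055 in the puberty and adult libraries. Those on the basal side numbered 759 to 3623, 932 at equal depth and 1473 in the calls of the 9-library fit, where 49.4% of regions lay nearer ER- luminal cells (39.3% to 45.8% without 1 library). Basal-higher regions on the ER- luminal side numbered 3472 to 9498 and 3619 at equal depth, and on the basal side 48 to 767, 147 at equal depth and 904 in the puberty and adult libraries. Restricting the side test to the puberty and adult libraries or to the 9-library calls was added after the data were seen.

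Counts at least 4-fold apart at puberty, adult and pregnancy became 3708, 2775 and 867 (ER- luminal-higher) and 5825, 6072 and 2935 (basal-higher) with a pseudocount of 4. At equal depth the ER- luminal-higher counts at puberty and in adults were 10978 and 13307. With a mean of at least 10 the ER- luminal-higher counts in adults and pregnancy were 4855 and 1482, and the basal-higher count in pregnancy 4409. Medians at a puberty stage that did not choose the regions became 1.89 with a pseudocount of 4, and 0.53 and -3.54 with an 8-fold rule. Depth limits the pregnancy values most, where 3 reads are worth 4.55 units in ER- luminal and 6.60 in basal cells. The causes of these shifts were not tested.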

Other observations

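Regions close in running number tended to differ in the same direction. The sources used here do not say whether the numbers follow the genome. The number after a basal-higher region was itself basal-higher in 26.4% of cases and ER- luminal-higher in 5.0%, against 12.5% and 9.15% of all regions. After an ER- luminal-higher region these shares were 6.6% and 18.5%. The log2 difference of a region and of the next number had a Pearson r of 0.231 across regions, given as a description. It was 0.111 at 5 numbers apart, 0.069 at 10 and 0.009 at 100. Unbroken runs of at least 5 basal-higher regions numbered 132 and held 801 regions, and such runs of ER- luminal-higher regions numbered 31 and held 183. The longest were of 12 and 13 regions.

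Complete absence of reads was rare. In ER- luminal cells 63 regions had no read in any of the 3 libraries, and in 2 of these the basal mean was at or above 16.33, the median of all regions. In basal cells 54 regions had no read, and in 0 of them did the ER- luminal mean reach that value.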
